A study of Homo sapiens with 27 samples.

Results

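The genes described here are the histone genes with clustered-type symbols, most of them active in DNA replication, which encode the linker histones H1 and the core histones H2A, H2B, H3 and H4. A gene was included when its symbol in the array's annotation began with HIST, or when that symbol or its update began with H1-, H2AC, H2BC, H3C or H4C. Only probe sets that named 1 gene were used. A probe set is the group of short array probes that together give 1 expression value. By this rule 42 of the 11963 genes measured were histone genes, comprising 7 of H1, 8 of H2A, 12 of H2B, 7 of H3 and 8 of H4. H2BC5 had 2 probe sets and every other member 1.

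The RNA came from MDA-MB-231 cells, an established human breast cancer line, kept in standard medium with serum. Cells received DMSO, the vehicle, or 5SGlcNAc at 50 µM, an inhibitor of the enzyme OGT that attaches the sugar O-GlcNAc to proteins, or Thiamet-G at 25 µM, an inhibitor of the enzyme OGA that removes it. Each treatment has 1 array at each of 0, 2, 4, 6, 8 and 24 h and 3 arrays at 48 h, 27 arrays in all. The title of the series asks about the antioxidant factor NRF2 and its inhibitor KEAP1, and no source used here states a question about histones.

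Histones are the proteins around which DNA is wound, with H2A, H2B, H3 and H4 forming the core of the nucleosome and H1 binding the linker DNA between nucleosomes. Most of their genes are transcribed in S phase, when new DNA must be packaged, and their messages end in a stem-loop bound by SLBP in place of a poly(A) tail. Some of these genes also yield polyadenylated messages, and labelling that starts at a poly(A) tail detects chiefly those. Such a measurement therefore does not report on the bulk of replication histone message.

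Of the 42 members, 38 lie on chromosome 6, 2 on chromosome 1 (H2AC25 and H2BC21), H1-10 on chromosome 3 and H2BC12L on chromosome 21 in RefSeq's annotation of GRCh38.p14. In that annotation H2BC12 spans 8566 bases, H2BC5 13229, H3C6 3296, H2BC21 2224 and H1-10 1516, while the other members span 386 to 797 bases, about the size of a short unspliced message. For 12 members the nearest histone gene with a listed promoter starts within 500 bases and runs in the opposite direction. An example is H2AC6, whose start lies 246 bases from that of H2BC4. Histone genes without a listed promoter did not enter this search, so further such pairs may be missed. RefSeq promoters were matched for 39 members, all but H2BC12L, H3C11 and H4C1. The 150 bases before the start are shown for 5 members on which the results turn: H2BC12, H2BC5 and H2AC6 as core histone genes that rose in at least 1 comparison, H1-2 as the linker gene that moved in opposite directions under the inhibitors, and H1-10 as the linker gene outside the chromosome 6 cluster. They are H2BC12 at chr6:27146859-27147008 (minus strand), H2BC5 at chr6:26157971-26158120 (plus strand), H2AC6 at chr6:26124022-26124171 (plus strand), H1-2 at chr6:26056471-26056620 (minus strand) and H1-10 at chr3:129316287-129316436 (minus strand). Each is written 5′ to 3′ along the gene's own strand, and capitals mark a match to 1 of the motifs searched, on either strand.
H2BC12: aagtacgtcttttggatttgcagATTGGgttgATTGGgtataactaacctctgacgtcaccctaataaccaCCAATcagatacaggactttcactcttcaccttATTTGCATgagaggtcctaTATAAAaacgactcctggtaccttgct
H2BC5: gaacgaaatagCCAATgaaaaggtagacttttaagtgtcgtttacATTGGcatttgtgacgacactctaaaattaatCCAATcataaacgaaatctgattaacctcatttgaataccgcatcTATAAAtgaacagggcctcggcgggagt
H2AC6: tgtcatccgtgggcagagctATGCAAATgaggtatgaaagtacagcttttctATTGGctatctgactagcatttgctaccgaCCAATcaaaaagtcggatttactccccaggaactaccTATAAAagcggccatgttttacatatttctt
H1-2: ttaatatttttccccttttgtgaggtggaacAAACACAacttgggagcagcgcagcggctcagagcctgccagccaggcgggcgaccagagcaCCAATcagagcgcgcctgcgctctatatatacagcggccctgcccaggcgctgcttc
H1-10: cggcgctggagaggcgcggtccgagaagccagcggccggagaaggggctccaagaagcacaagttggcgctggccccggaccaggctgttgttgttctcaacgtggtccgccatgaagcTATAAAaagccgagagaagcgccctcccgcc

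The motifs searched on both strands of the 250 bases before the start were the octamer ATTTGCAT, bound by POU2F1, the CCAAT box CCAAT, the TATA box TATAAA and the AC box AAACACA of H1 genes. No match to 1 motif overlapped a match to another in the members' promoters. The octamer was in 14 of the 39 members, 6 of 8 H2A and 8 of 11 H2B promoters and none of H1, H3 or H4, against 1.66% of all 27305 promoters. The AC box was in 6 of 7 H1 promoters, all but that of H1-10, and in no core histone promoter, against 4.95% of all promoters. CCAAT was in 33 of 39 members against 33.0% of all promoters, and TATAAA in 26 of 39 against 11.1%. H4 promoters stood apart for CCAAT, with 2 of 7. These are matches of letters and not measured binding.

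**Figure D1:**
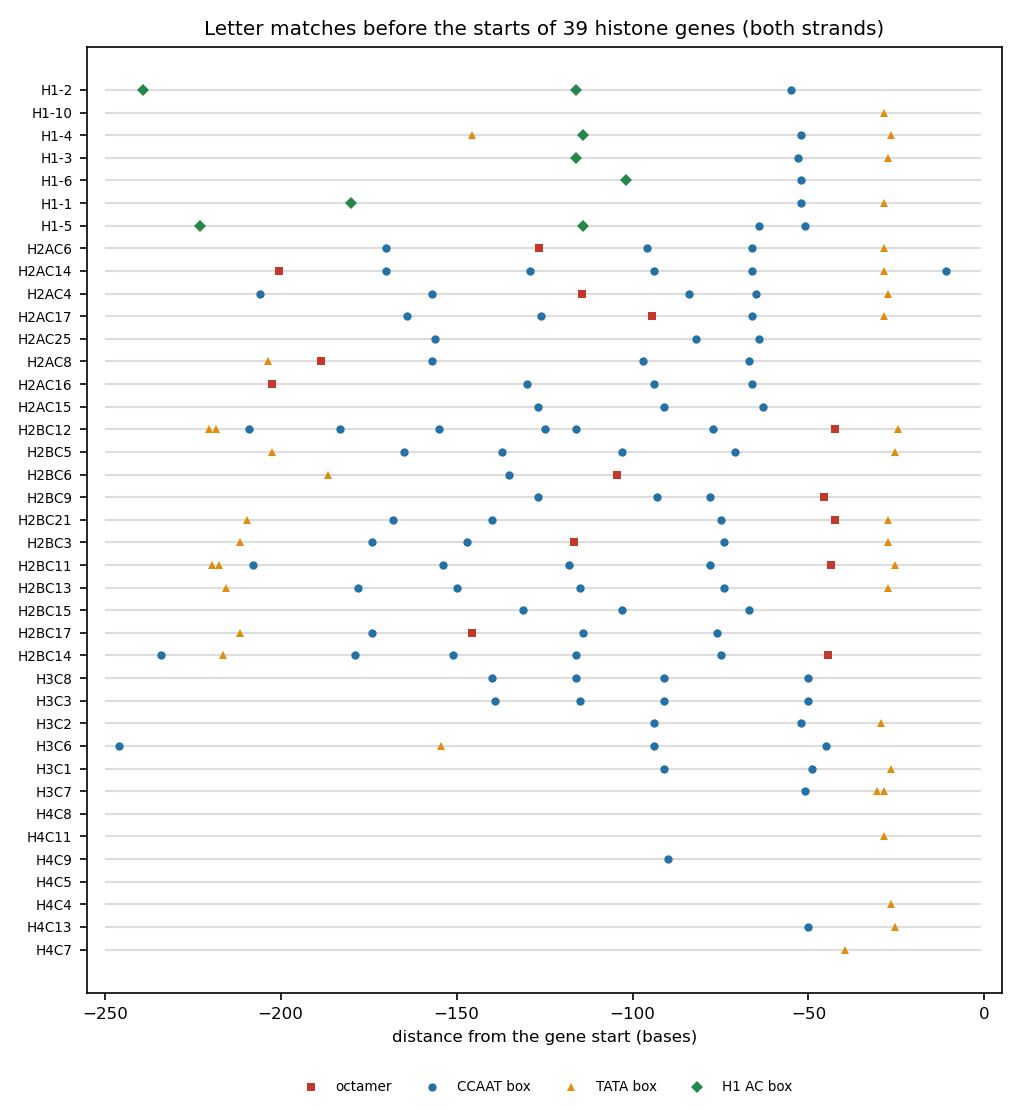
Matches to 4 motifs before the starts of 39 histone genes, 1 row per gene. The horizontal axis gives the distance from the gene's start in bases, and each marker is a match to the octamer, the CCAAT box, the TATA box or the H1 AC box on either strand. Octamers appear in 14 rows, all of H2A or H2B, and AC boxes in 6 rows, all of H1.

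The deposited log2 levels had array medians of 7.68 to 7.76 at 48 h and of 7.43 to 7.53 from 0 to 24 h, and both sets were analysed apart, with no level compared between them. Markers of the line such as VIM, AXL and CD44 stood at the 99.9, 98.8 and 97.2 percentile of genes at 48 h, while SPARC, also listed as a marker of the line, stood at 11.8. Haematopoietic markers ranged from the leukocyte marker PTPRC at 4.61 to HBB at 43.8, and fibroblast markers from POSTN at 3.23 to COL1A1 at 60.7. The DMSO array of 4 h differed from the rest by a gap of 1.64 between the 3′ and 5′ probe sets of ACTB on the log2 scale, a sign of shortened RNA or message, and the Thiamet-G array of 4 h by 1.24, against 0.42 to 0.95 on the other arrays up to 24 h and 0.15 to 0.39 at 48 h. Of the histone members, 30 of 42 lay under the 40th percentile of genes at 48 h and 31 of 42 from 0 to 24 h. The 12 members above that line at 48 h were H1-2, H1-10, H2AC6, H2AC14, H2BC5, H2BC6, H2BC9, H2BC12, H2BC12L, H2BC21, H4C8 and H4C11. The labels do not say whether the 3 arrays of a group were grown as separate cultures. The p-values therefore weigh differences against the spread of these arrays alone, and that spread may be technical. Bulk RNA also cannot tell fewer cells expressing a gene from less RNA per cell.

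With 5SGlcNAc at 48 h, 2 linker genes fell and 4 H2B genes rose. H1-10 and H1-2 fell, the former by 0.51 on the log2 scale, and H2BC12, H2BC5, H2BC6 and H2BC9 rose by 0.14 to 0.27. Past the threshold, an adjusted p under 0.05 in limma with Benjamini-Hochberg adjustment over all genes, were thus 4 members higher, against 2.92% of all genes, and 2 lower, against 7.32%. In either direction this was 6 of 42 against 10.2% of all genes, and the groups did not overlap for 14 members, against 31.2% of genes. Counted in either direction, the number of histone genes that changed was therefore near the background. The 4 higher calls, all of H2B, were a larger share than over all genes, and the 2 lower calls a smaller one. No test compared these shares.

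H1-10, a replication-independent linker histone, read 10.82, 10.68 and 10.75 on the DMSO arrays, 10.11, 10.20 and 10.40 with 5SGlcNAc and 10.46, 10.57 and 10.46 with Thiamet-G. All 5SGlcNAc arrays lay below all arrays of the other treatments. The log2 fold change against DMSO was -0.51 ± 0.075 (SE, n = 3), 1.43-fold lower, with an adjusted p of 0.00343 in limma. The probe set of H1-10 ends in _s_at, the array's mark for probes shared by several transcripts. Whether its value includes other messages was not tested. H1-2, a linker histone of the chromosome 6 cluster with known polyadenylated message, read 11.36, 11.35 and 11.46 with DMSO, 11.23, 11.12 and 11.17 with 5SGlcNAc and 11.68, 11.73 and 11.75 with Thiamet-G. The 3 treatments did not overlap, with 5SGlcNAc lowest and Thiamet-G highest. H1-2 fell by 0.22 on the log2 scale with 5SGlcNAc (SE 0.048, limma adjusted p = 0.0211). None of the other 5 H1 genes passed, and the class median was -0.10.

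Of 12 H2B genes, 11 had a fold change above 0 with 5SGlcNAc and their median was 0.14, against 0.010 over all genes. H2BC6 read 10.35, 10.46 and 10.44 with DMSO and 10.73, 10.67 and 10.66 with 5SGlcNAc, a rise of 0.27 ± 0.052 (SE, n = 3, limma adjusted p = 0.0107). H2BC12, an H2B gene with a long annotated span in the genome, read 13.21, 13.21 and 13.19 with DMSO and 13.34, 13.35 and 13.34 with 5SGlcNAc, a small rise of 0.14 ± 0.038 (limma adjusted p = 0.0460). H2BC5 read 11.75, 11.81 and 11.89 with DMSO and 12.06, 12.04 and 11.99 with 5SGlcNAc, a rise of 0.21 ± 0.055 (limma adjusted p = 0.0376). For each of these genes every 5SGlcNAc array lay above every DMSO array. The second probe set of H2BC5 read 11.30, 11.23 and 11.36 against 11.50, 11.52 and 11.41, also without overlap. H2BC9 read 9.09, 9.11 and 9.17 against 9.36, 9.32 and 9.29, a rise of 0.20 ± 0.054 (limma adjusted p = 0.0474).

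H2AC6, an H2A gene with polyadenylated message, read 10.89, 10.94 and 11.04 with DMSO and 11.12, 11.09 and 11.09 with 5SGlcNAc, a difference of 0.14 that did not pass (limma adjusted p = 0.130). H2BC21, an H2B gene of chromosome 1, read 7.68, 7.69 and 7.83 against 7.83, 7.64 and 7.83, with overlapping groups. No H2A, H3 or H4 gene passed with 5SGlcNAc. The 8 H2A genes ranged from -0.027 to 0.14 with a median of 0.015, the 7 H3 genes from -0.24 to 0.15 with 0.073, and the 8 H4 genes from -0.10 to 0.28 with 0.048. The ends of these ranges were H4C8 (8.47, 8.52 and 8.61 against 8.90, 8.79 and 8.74) and H3C2 (6.82, 6.82 and 6.91 against 6.77, 6.45 and 6.62). Over all 42 members the median was 0.048 and 27 lay above 0, against 53.1% of all genes. H2BC5, H2BC6 and H2BC9 were read by probe sets whose names end in _x_at, the array's mark for probes that can match several sequences, so these 3 may share signal with each other and with further H2B copies. The count of 6 fell to 3 without such probe sets, to 3 without any 1 DMSO array or without 5SGlcNAc array 1, and to 2 without 5SGlcNAc array 2 or array 3, while the member median was 0.14 without genes under the 40th percentile.

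**Figure D2:**
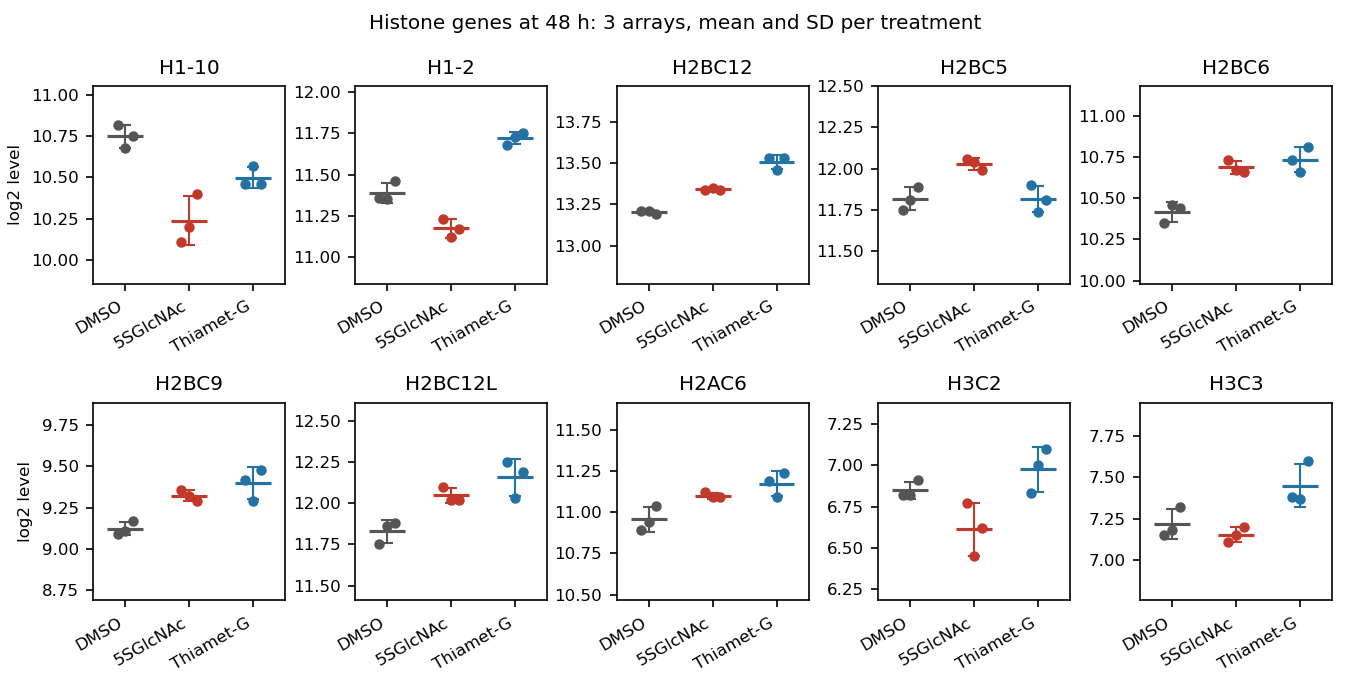
Log2 expression levels at 48 h of 10 histone genes, 1 panel per gene, with each treatment's 3 arrays as points and their mean and SD as bars. Each panel has its own vertical range of equal width. H1-10 lies lowest with 5SGlcNAc, at 10.11 to 10.40, and H1-2 separates all 3 treatments.

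The genes around histone production were not uniform with 5SGlcNAc at 48 h. Of 8 histone variants outside the rule, CENPA, the centromeric H3, fell by 0.19 on the log2 scale (limma adjusted p = 0.0380) and the others did not pass. Of 21 genes for transcription and 3′ processing of histone messages, CDK2, which with cyclin E activates the histone transcription factor NPAT, fell by 0.24, and ZNF473, a zinc finger protein of the U7 processing complex, rose by 0.24 (limma adjusted p = 0.0157 and 0.0312). Of 28 chaperones and assembly factors, ASF1B and CHAF1B, which carry and deposit H3 and H4, fell by 0.32 and 0.34, and ASF1A, a paralogue of ASF1B, rose by 0.25. Of 41 replication genes 11 fell, among them the helicase subunits MCM7 by 0.77 and MCM5 by 0.30 and the thymidine kinase TK1 by 0.47, and of 26 mitosis genes 10 fell, among them KIF20A by 0.26. The median level of the replication list was 10.52 to 10.59 on the 5SGlcNAc arrays, 10.64 to 10.76 with DMSO and 10.68 to 10.80 with Thiamet-G, and that of the mitosis list 11.59 to 11.63, 11.74 to 11.83 and 11.79 to 11.92. So lower replication and mitosis messages stood beside higher H2B values on the same arrays, and the part of cell cycle stage in the histone values was not tested.

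Some genes of the luminal and fibroblast marker lists moved on the same arrays. Of 12 luminal epithelial markers, CLDN7 and KRT19 fell by 0.48 and 0.42 and CDH1 by 0.29 with 5SGlcNAc, and the list's median was 7.92 to 8.04 against 8.23 to 8.41 with DMSO. The luminal list ranged from PGR at the 3.70 percentile to KRT18 at 98.7. Of 10 fibroblast markers LUM fell by 0.49, with a list median of 5.98 to 6.20 against 5.95 to 6.27. None of 8 haematopoietic markers or 8 markers of the line passed in limma, with 1 of each at an unadjusted p under 0.05, although the median of the haematopoietic list was 6.29 to 6.34 against 6.17 to 6.23. The part of these markers in the histone values was not tested.

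With Thiamet-G at 48 h, 5 members rose: H1-2, H2BC12, H2BC12L, H2BC6 and H2BC9. That is 5 of 42 against 0.476% of all genes called higher, in a comparison where most calls were falls. In either direction 3.49% of genes were called. No member fell, against 3.01% of genes, and 1 member, H1-10, was lower at an unadjusted limma p under 0.05. Groups did not overlap for 10 members, against 21.5% of genes, and 32 of 42 lay above 0, against 45.7%.

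H1-2 rose by 0.33 ± 0.048 on the log2 scale (SE, n = 3, limma adjusted p = 0.0109), from the levels given above. H2BC12 read 13.53, 13.46 and 13.53 with Thiamet-G, a rise of 0.30 ± 0.038 over DMSO (limma adjusted p = 0.00625), and every array lay above every 5SGlcNAc array as well. H2BC12L, a near copy of H2BC12 on chromosome 21, read 11.75, 11.86 and 11.88 with DMSO and 12.25, 12.03 and 12.19 with Thiamet-G (0.33 ± 0.063, limma adjusted p = 0.0264). Since its probe set ends in _x_at, its value may include message of H2BC12. H2BC6 read 10.73, 10.66 and 10.81 with Thiamet-G and H2BC9 read 9.42, 9.29 and 9.48, rises of 0.32 ± 0.052 and 0.27 ± 0.054 (limma adjusted p = 0.0151 and 0.0288). These 5 genes had no overlap between Thiamet-G and DMSO arrays.

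H2BC5, which rose with 5SGlcNAc, read 11.90, 11.74 and 11.81 with Thiamet-G, a log2 fold change of 0.00 with a 95% interval of -0.12 to 0.12. Its second probe set read 11.50, 11.28 and 11.47, against 11.30, 11.23 and 11.36 with DMSO. H2AC6 read 11.19, 11.09 and 11.24 (0.22, limma adjusted p = 0.0643) and H2BC21 read 7.83, 7.89 and 8.20 (0.24, adjusted p = 0.215). H1-10 was lower by a log2 difference of -0.25 that did not pass (limma adjusted p = 0.110). Class medians were 0.060 for H1, 0.092 for H2A, 0.16 for H2B, 0.070 for H3 and 0.075 for H4, against -0.010 over all genes. The widest H3 difference was that of H3C1, whose arrays read 4.94, 4.97 and 4.82 with DMSO and 5.21, 4.94 and 5.70 with Thiamet-G, with overlap (0.37, limma adjusted p = 0.232). The count of 5 became 2 without probe sets ending in _x_at, without DMSO array 1 or 3 or without Thiamet-G array 1, 3 without DMSO array 2 or Thiamet-G array 3, and 2 when only the arrays of both groups were fitted. It became 8 without genes under the 40th percentile, where the member median was 0.25 in place of 0.072, and 8 with trended and robust variances.

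**Figure D3:**
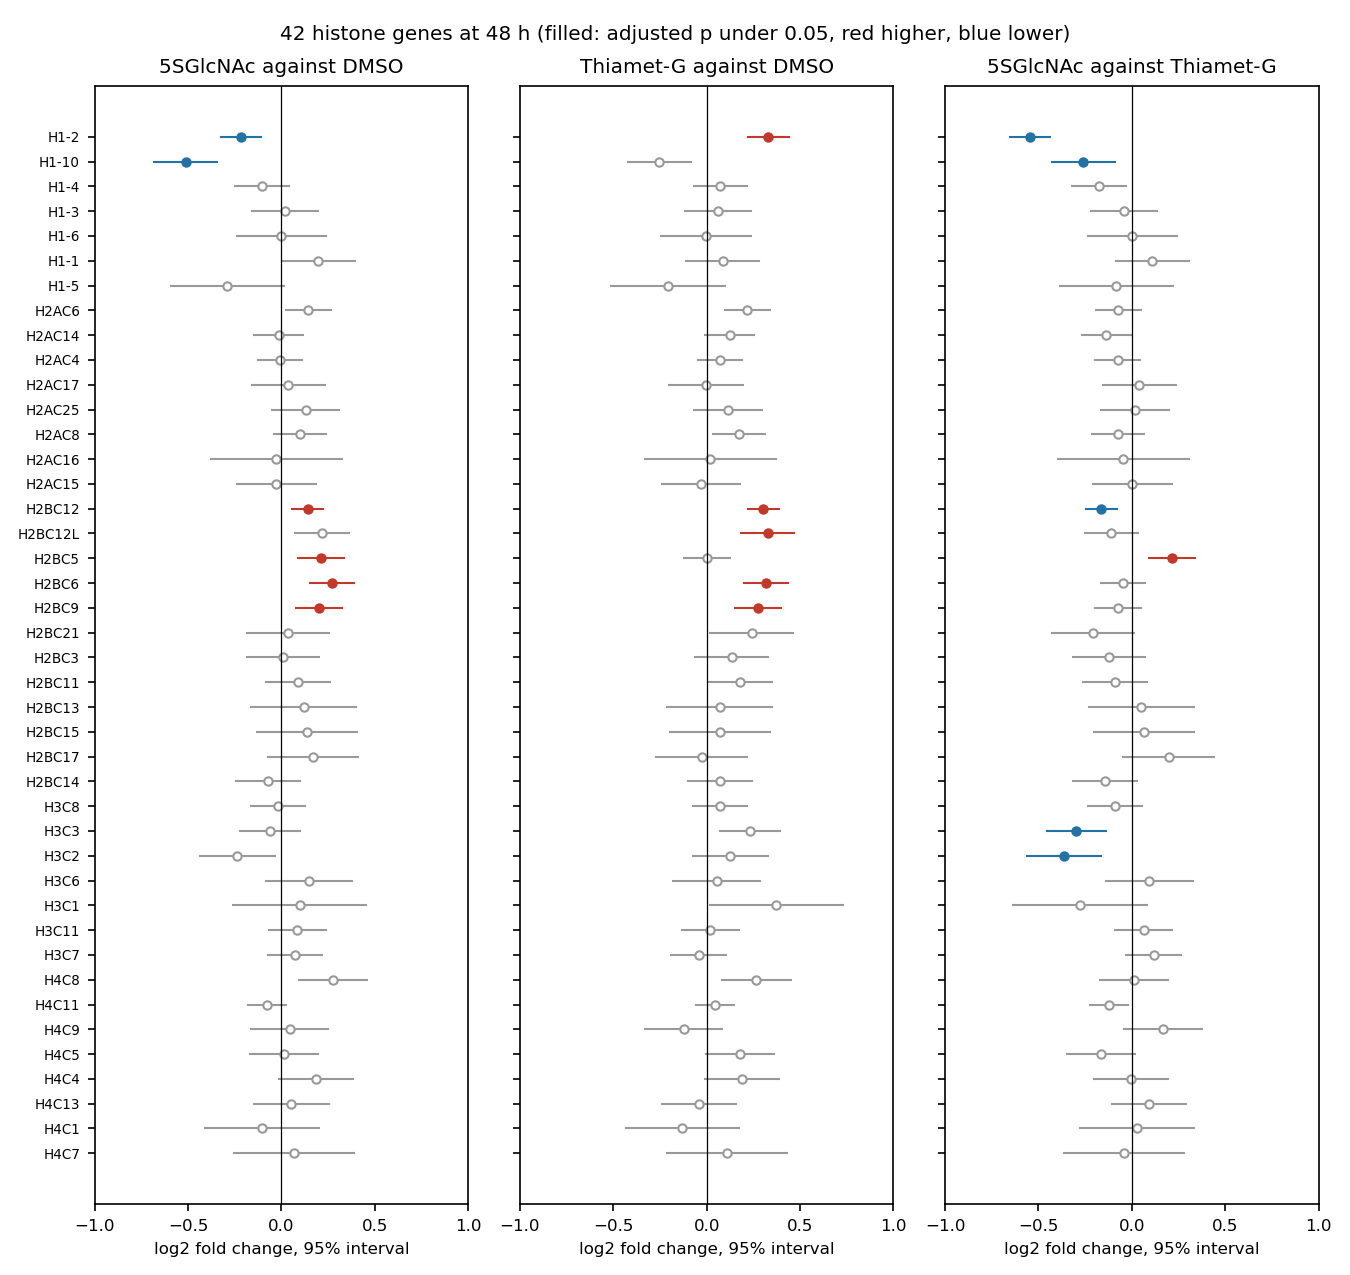
Log2 fold changes of all 42 histone genes at 48 h with their 95% confidence intervals, in 3 panels for 5SGlcNAc against DMSO, Thiamet-G against DMSO and 5SGlcNAc against Thiamet-G. Filled markers passed an adjusted p of 0.05 in limma, red higher and blue lower. The filled markers number 6, 5 and 6, and those of H2B lie right of 0 in both comparisons with DMSO.

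The related genes moved little with Thiamet-G. None of 8 histone variants, 21 transcription and processing genes or 28 chaperones passed in limma, with 0, 3 and 5 of them at an unadjusted p under 0.05. Of 41 replication genes, RPA3, POLA2 and PRIM1, a single-strand binding subunit and subunits of the priming polymerase, fell by 0.40, 0.27 and 0.24, and of 26 mitosis genes HMMR fell by 0.32. No marker of the line, luminal, haematopoietic or fibroblast lists passed with Thiamet-G, with 2, 2, 1 and 2 of them at an unadjusted p under 0.05. The haematopoietic list median was 6.11 to 6.15 with Thiamet-G against 6.17 to 6.23 with DMSO, without overlap, and its part in the histone values was not tested. Both inhibitors were compared with the same DMSO arrays, so their fold changes are not independent, and each is given with its own values only.

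Set directly against each other at 48 h, the inhibitors differed most in H1-2. H1-2 was lower with 5SGlcNAc than with Thiamet-G by a log2 difference of -0.55 ± 0.048 (SE, n = 3, limma adjusted p = 0.000195), 1.46-fold. H1-10 (-0.26), H2BC12 (-0.16), H3C2 (-0.36) and H3C3 (-0.30) were also lower, and H2BC5 was higher by 0.21 (limma adjusted p = 0.0491, 0.0209, 0.0265, 0.0246 and 0.0315). This made 5 members lower against 6.79% of all genes and 1 higher against 6.87%. In either direction it was 6 of 42 against 13.7%, and groups did not overlap for 7 members against 29.3% of genes. Of the members 16 of 42 lay above 0, against 57.3% of genes, with a median of -0.060 against 0.023.

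H3C2, an H3 gene of the cluster, read 6.77, 6.45 and 6.62 with 5SGlcNAc and 6.83, 7.00 and 7.10 with Thiamet-G. H3C3, another H3 gene, read 7.11, 7.15 and 7.20 against 7.38, 7.37 and 7.60. Neither overlapped between the inhibitors, and both lay under the 40th percentile of genes. H2BC6 and H2BC9, which rose in both comparisons with DMSO, differed between the inhibitors by -0.047 (95% interval -0.16 to 0.070) and -0.073 (-0.20 to 0.049), which did not pass. A probe set that names H2BC6 among 5 H2B genes, outside the gene tests, was lower with 5SGlcNAc by a log2 difference of -0.52. The H2BC5 difference was 0.14 and did not pass when its probe sets were averaged. The count of 6 became 2 with only the arrays of both groups or without 5SGlcNAc array 1, 3 without 5SGlcNAc array 3, 1 without 5SGlcNAc array 2 or Thiamet-G array 3, and 4 without Thiamet-G array 1 or 2.

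Of the related lists in this comparison, none of 8 variants passed in limma, with 1 at an unadjusted p under 0.05. UPF1, which takes part in the decay of histone messages, and ZNF473 were higher with 5SGlcNAc by 0.18 and 0.27, while CDK2 was lower by a log2 difference of -0.24. ANP32E, a chaperone of H2A.Z, and CHAF1B were lower by differences of -0.24 and -0.26. Of replication genes 8 of 41 were lower, led by MCM7 at -0.69, and 2 higher, and of mitosis genes 11 of 26 were lower, led by KIF20A at -0.35, and 1 higher. CAV1, a marker of the line, was lower by a difference of -0.25, and 4 of 12 luminal markers, LUM among fibroblast markers and LYZ among haematopoietic markers were lower, with CD79A higher. The part of these in the histone differences was not tested.

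From 2 to 24 h the mean effect of an inhibitor was estimated over 5 times with 1 array each. No member passed for 5SGlcNAc against DMSO, for Thiamet-G against DMSO or for 5SGlcNAc against Thiamet-G in limma, against 0%, 0% and 0.259% of all genes (0.0836% higher and 0.176% lower in the last). Above 0 lay 14, 15 and 17 of the 42 members, against 49.8%, 50.3% and 50.7% of genes. At an unadjusted p under 0.05 there were 2, 2 and 1 members. H2BC21 was the member with the smallest p against DMSO for both inhibitors, which share the DMSO arrays, with -0.17 ± 0.064 and -0.16 ± 0.064 on the log2 scale. At 0 h, which is not in this fit, H2BC21 was already lower than with DMSO by -0.24 for both. Its differences at 4 h, -0.26 and -0.41, rest on the DMSO array with the wide ACTB gap. These values therefore cannot be told from an offset between the series. H1-10 had mean effects of -0.19 and -0.21, with 95% intervals of -0.41 to 0.026 and -0.42 to 0.012. The differences of 5SGlcNAc minus DMSO at 2, 4, 6, 8 and 24 h were -0.13, -0.11, 0.14, -0.15 and -0.72, so the first value rests on the 24 h array and was -0.060 without it. The Thiamet-G value was -0.21 without 24 h. No gene of the related lists or marker lists passed in the comparisons with DMSO. Without the DMSO array of 4 h the member counts were again 0.

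What did move in this period was time, with the treatments together. At 24 h 13 of 42 members were higher than at 0 h, against 4.83% of all genes, and no member was lower, against 5.14%, with none lower at an unadjusted limma p under 0.05 either. In either direction 9.97% of genes were called, and 32 of 42 members lay above 0 against 53.7%. Of the 13, 8 were H2B genes, and all 12 H2B genes lay above 0 with a class median of 0.48, against 0.013 over all genes. Among these 8, H2BC5, H2BC6, H2BC9 and H2BC12L were read by probe sets ending in _x_at. Those 4 may share signal with each other and with further H2B copies. Of the 13, H2AC6, H2BC21, H3C2 and H4C8 were read by probe sets ending in _s_at, whose probes are shared by several transcripts. Their values at other times come from the same probe sets, and whether these include other messages was not tested. Class medians were 0.11 for H1, 0.087 for H2A, 0.045 for H3 and 0.048 for H4.

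H2AC6 had the largest rise. It read 9.05 (DMSO), 9.04 (5SGlcNAc) and 8.93 (Thiamet-G) at 0 h and 9.96, 9.73 and 9.94 at 24 h, a log2 fold change of 0.87 ± 0.097 or 1.83-fold (limma adjusted p = 7.4e-05). Its arrays between 2 and 8 h ran from 9.10 to 9.64, so each 24 h array lay above all earlier ones. H4C8, an H4 gene, read 6.53, 6.59 and 6.16 at 0 h and 7.32, 7.00 and 7.33 at 24 h (0.79 ± 0.12, limma adjusted p = 0.000754). H1-2 read 9.64, 9.45 and 9.57 at 0 h and 10.29, 9.92 and 10.38 at 24 h (0.64 ± 0.098, limma adjusted p = 0.000896). In each gene the 5SGlcNAc array was the lowest of the 24 h arrays.

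Among H2B genes, H2BC12 read 11.95, 12.04 and 11.93 at 0 h for DMSO, 5SGlcNAc and Thiamet-G and 12.57, 12.41 and 12.73 at 24 h (0.59 ± 0.081, limma adjusted p = 0.000407). H2BC5 read 10.21, 10.10 and 10.13 against 10.75, 10.56 and 10.69 (0.52 ± 0.075, limma adjusted p = 0.000596). H2BC12L read 10.20, 10.15 and 10.07 against 10.90, 10.57 and 11.02 (0.69 ± 0.12, limma adjusted p = 0.00176). The 0 h and 24 h arrays did not overlap in any of these. H2BC9, H2BC6, H2BC11, H2BC21 and H2BC3 rose by 0.64, 0.58, 0.51, 0.45 and 0.39, and the H3 genes H3C2 and H3C3 by 0.48 and 0.31, each in 3 of 3 series with limma adjusted p from 0.00212 to 0.0436.

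Of the 6 measured members listed as known for polyadenylated message (H1-2, H1-10, H2AC6, H2BC5, H2BC12 and H2BC21), 5 rose at 24 h, with a median of 0.56. The same 6 gave 2 higher and 2 lower with 5SGlcNAc at 48 h and 2 higher with Thiamet-G. H1-10 was the 1 that did not rise at 24 h. It read 10.49, 10.44 and 10.52 at 0 h and 10.73, 10.01 and 10.53 at 24 h, with a mean change of -0.064 (95% interval -0.33 to 0.20). The 5SGlcNAc array of 24 h was the lowest of the 18 arrays up to that time. The other 28 members lay between -0.12 and 0.28 at 24 h and did not pass. The count of 13 became 8 without the DMSO series, 7 without the Thiamet-G series, where H2BC11 was at 0.29, and 7 without genes under the 40th percentile, where the member median was 0.58 in place of 0.14.

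**Figure D4:**
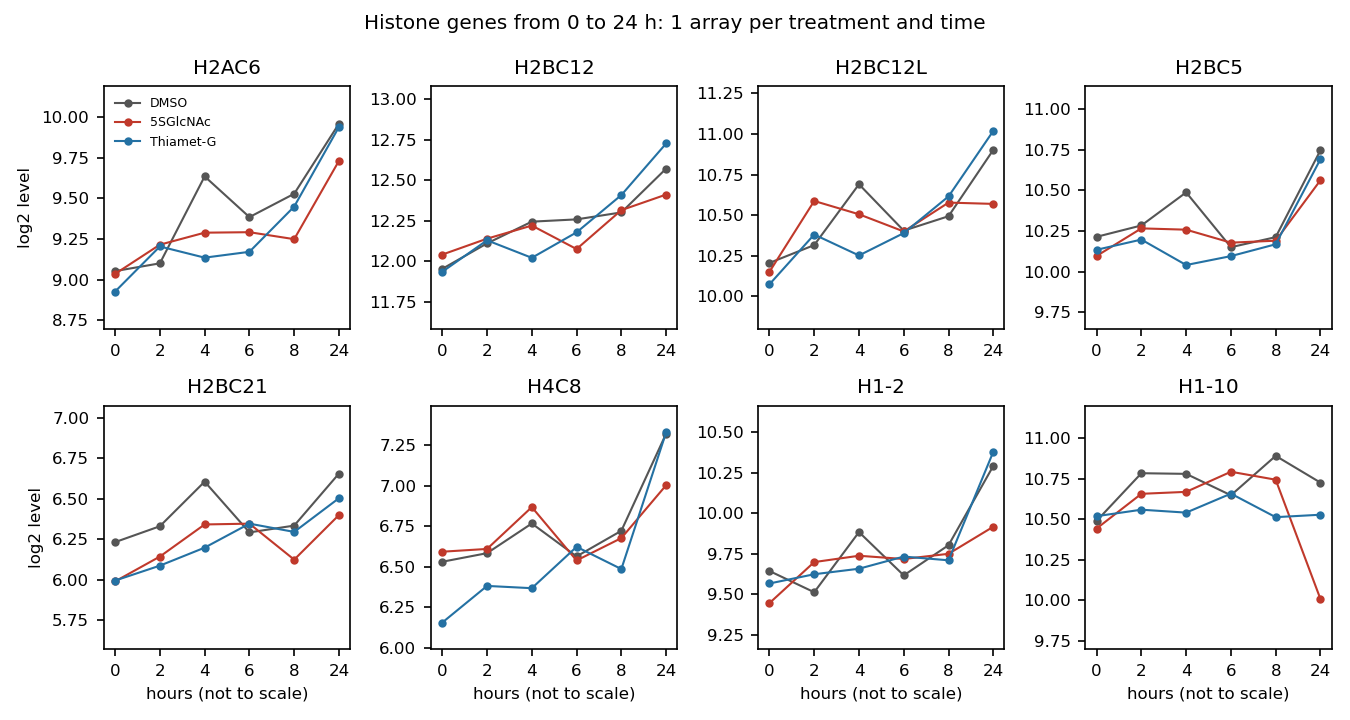
Log2 levels of 8 histone genes from 0 to 24 h, 1 panel per gene, with 1 array per treatment and time joined by lines. Hours are spaced evenly and not to scale, and panels have vertical ranges of equal width. H2AC6, H2BC12, H2BC12L, H2BC5, H4C8 and H1-2 end at 24 h above their 0 h arrays in all series, and H1-10 does so with DMSO and Thiamet-G.

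Earlier times showed fewer changes. At 2 h no member passed, against 0.51% of all genes in either direction, with 3 at an unadjusted limma p under 0.05, and 30 of 42 lay above 0 against 48.6%. At 4 h H2BC21 was higher by 0.31 ± 0.077 (limma adjusted p = 0.0402), 1 of 42 against 1.33% of genes called higher, 1.95% lower and 3.28% in either direction. At this time 38 of 42 members lay above 0, against 55.8% of genes. Its arrays read 6.23, 5.99 and 6.00 at 0 h and 6.61, 6.34 and 6.20 at 4 h for DMSO, 5SGlcNAc and Thiamet-G, with overlap, and the call was lost without any 1 series and without the DMSO array of 4 h, the array with the wide ACTB gap. That array gave the highest reading up to 8 h for H2AC6 (9.64), H2BC5 (10.49) and H2BC12L (10.69). The part of RNA quality in these readings was not tested.

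At 6 h no member passed, against 2.27% of all genes higher, 2.22% lower and 4.49% in either direction, and 31 of 42 lay above 0 against 50.5%, with 7 at an unadjusted limma p under 0.05. At 8 h H2AC6, H2BC12 and H2BC12L were higher than at 0 h by 0.40, 0.37 and 0.42 (limma adjusted p = 0.0232, 0.0167 and 0.0435), 3 of 42 against 3.87% of genes called higher. No member was lower, against 2.49% of genes, with 1 lower at an unadjusted limma p under 0.05, which leaves 3 of 42 against 6.36% in either direction, and 27 of 42 lay above 0 against 48.8%. H2BC12 read 12.30, 12.32 and 12.41 at 8 h, all above its 0 h arrays. Luminal markers were lower at the same time. Of 12, 6 were lower than at 0 h at 8 h, among them CDH1 (-0.68), KRT19 (-0.60) and KRT18 (-0.32), and 2 at each of 2, 4 and 6 h. The list median was 8.19 to 8.29 at 8 h against 8.53 to 8.61 at 0 h. No marker of the line, haematopoietic or fibroblast list passed in limma at 8 h, with 1, 0 and 1 at an unadjusted p under 0.05, and the part of the markers in the histone rises was not tested. The count of 3 became 0 without the DMSO series, without the 5SGlcNAc series or without the Thiamet-G series.

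Some genes that act with the histones in S phase were higher at 6 and 8 h, though most did not pass, and no test compared them with the histone members. Of 41 replication genes, 5 were higher at 6 h and 9 at 8 h, among them PCNA, the polymerase clamp, by 0.32 and 0.41 and the origin subunit ORC6 by 0.34 and 0.29. CCNE2, a cyclin E that acts with CDK2, rose by 0.57 and 0.64, and NPAT, which switches on histone transcription, rose by 0.24 at 8 h. The chaperone DNAJC9 rose by 0.27, 0.32 and 0.37 at 4, 6 and 8 h, and NASP, a carrier of H3 and H4, by 0.31 at 6 h. At 24 h, 4 of 41 replication genes were higher, led by RRM2 at 0.34, 1 was lower (POLD2, -0.25), and 2 of 26 mitosis genes were higher (BUB1, 0.31, and CENPE, 0.30). None of the 21 transcription and processing genes passed at 24 h in limma, with 4 at an unadjusted p under 0.05, while H2AX rose by 0.25 and ASF1A by 0.54.

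The arrays of 24 h also differed from those of 0 h in genes of the luminal and fibroblast marker lists. Of 12 luminal markers 6 were lower and 1 higher, with CDH1 at -0.84 and TFF1 at -1.40, and the list median was 8.02 to 8.05 against 8.53 to 8.61. LUM was lower by a log2 difference of -1.05 among 10 fibroblast markers, and no haematopoietic marker or marker of the line passed in limma, with 0 and 2 at an unadjusted p under 0.05. The ACTB gap was 0.50 to 0.62 at 24 h and 0.59 to 0.81 at 0 h. The part of these in the histone rises was not tested.

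Within 24 h, treatments can be compared on 1 array each, which allows no test. The median difference of the 42 members was -0.13 for 5SGlcNAc minus DMSO, 0.083 for Thiamet-G minus DMSO and -0.28 for 5SGlcNAc minus Thiamet-G, against -0.038, -0.0043 and -0.027 over all genes. In the last, 37 of 42 members lay below 0, against 55.8% of all genes, and from 0 to 8 h the member medians of that difference stayed between -0.024 and 0.088. Over the same times the medians of 5SGlcNAc minus DMSO ran from -0.11 at 4 h to 0.091 at 6 h. Those of Thiamet-G minus DMSO ran from -0.13 at 4 h to 0.0094 at 6 h. Against DMSO, the 4 h medians thus came near the size of the 24 h value for 5SGlcNAc and passed it for Thiamet-G. Both 4 h medians rest on the DMSO array with the wide ACTB gap, and the Thiamet-G array of 4 h had a wide gap too. At 0, 2, 6 and 8 h the medians of Thiamet-G minus DMSO were -0.029, -0.046, 0.0094 and -0.039. With 1 array per group these medians have no error.

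H2BC12 lay on opposite sides of DMSO at 24 and 48 h. At 24 h it was lower with 5SGlcNAc (12.41) than with DMSO (12.57). In the set of 48 h, which was analysed apart, it was higher with 5SGlcNAc in all 3 arrays. Thiamet-G was highest at both times. H2BC6 likewise read 9.27 with 5SGlcNAc against 9.64 with DMSO at 24 h. H1-10, at 10.01 against 10.73, and H1-2, at 9.92 against 10.29, were lower with 5SGlcNAc at 24 h and at 48 h. The 24 h values rest on single arrays, where the 95th percentile of the size of this difference over all genes was 0.45. H1-10 lay beyond that at -0.72, while H2BC12 (-0.16), H2BC6 (-0.37) and H1-2 (-0.37) did not. Whether the effect differed between 24 and 48 h was not tested.

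**Figure D5:**
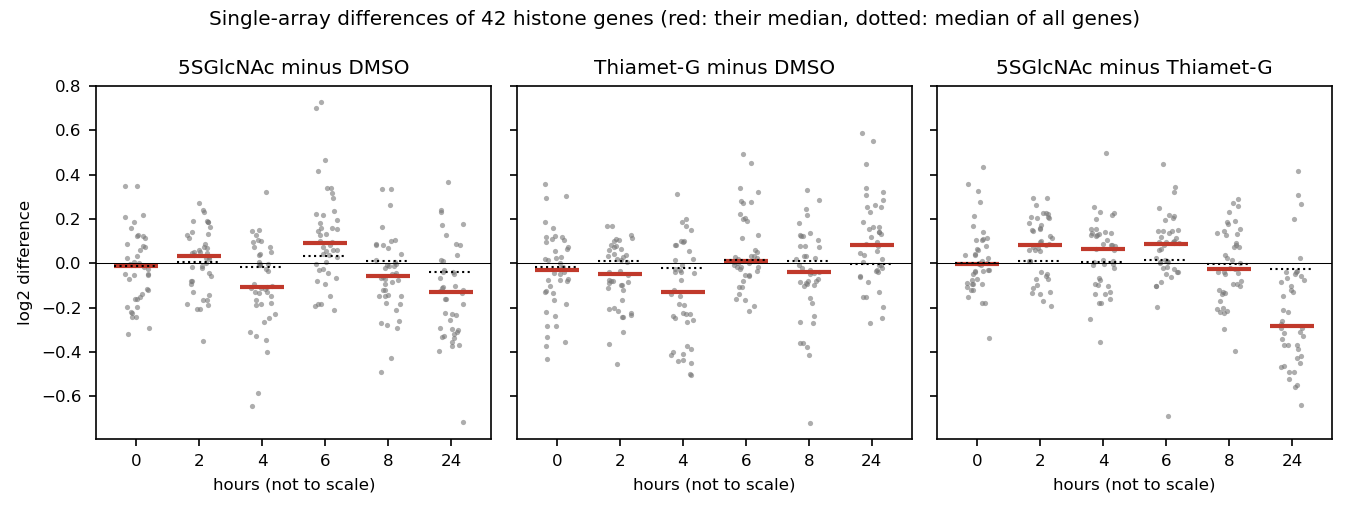
Differences between single arrays at each time from 0 to 24 h for the 42 histone genes, in 3 panels for the 3 pairs of treatments, on the log2 scale. Each grey point is a gene, the red bar is the members' median and the dotted line the median of all genes. At 24 h the members' median lies at -0.28 for 5SGlcNAc minus Thiamet-G.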

How the data were processed

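Expression was measured in MDA-MB-231 cells on 27 arrays. Per the submitters' processing notes the authors used RMA, and the deposited values are log2 levels per probe set. RMA equalises arrays processed together, so it can hide a shift shared by most genes. Its version and the priming of the label are not given in the sources used here. The values lie in a set of 9 arrays of 48 h and a set of 18 arrays of 0 to 24 h, fitted apart.

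Of 22277 probe sets, 62 controls, 1043 naming several genes and 2108 naming none were left out of gene tests, and symbols were updated by Entrez identifier. A gene took its probe set with the highest mean. limma 3.58.1 in R 4.3.3 (lmFit, eBayes) compared treatments at 48 h (3 arrays each), treatments over 2 to 24 h with time as a block, and each time with 0 h, blocking on treatment series. Calls needed a Benjamini-Hochberg adjusted p under 0.05 over all 11963 genes, and intervals are 95%. The fits were tested on simulated data. The number of arrays limits the precision.

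The members and gene lists were chosen with earlier results of these data known. Full values were given for members past the threshold and those known for polyadenylated message, and from each list of related or marker genes up to 3 genes with the smallest p were named. The alternatives were other normalizations, filters, probe set rules, variance models, blocks and left-out arrays.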

Additional observations from a re-analysis of the deposited data

Results flagged for a closer look

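A further 20 probe sets named several histone genes at once and entered no gene test. Fitted over 22215 probe sets with limma, some of them gave a signal outside the main measurement, and their value cannot be assigned to 1 gene. Probe sets that name the same genes often differed, so those that did not pass are given beside those that did.

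The widest were in 1 of 3 probe sets that name 5 H2B genes, H2BC4, H2BC6, H2BC7, H2BC8 and H2BC10. Against 0 h it was higher by 0.648 at 4 h, 0.915 at 6 h, 0.914 at 8 h and 1.25 at 24 h on the log2 scale (limma adjusted p = 0.0268, 0.00561, 0.00445 and 0.00013). The other 2 did not pass at 4, 6 or 8 h. Of 5 probe sets that name the same 14 H4 genes, 1 was higher by 0.226, 0.275, 0.289 and 0.214 at the same times (limma adjusted p = 0.0398, 0.0159, 0.0107 and 0.0258). The other 4 passed at none of these times, and the lowest of them was at 0.016 at 24 h. These 5 probe sets also differed in level. On the DMSO array of 0 h the 1 that passed read 13.36, and the other 4 read 3.58 to 7.89. Of all probe sets, 2.29%, 2.85%, 4.22% and 7.33% passed at these times in either direction.

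At 24 h further shared probe sets were higher than at 0 h. Of 2 that name the same 10 H3 genes, 1 was higher by 0.558 (limma adjusted p = 0.00332) and the other lay at -0.20 and did not pass (adjusted p = 0.332). Of 2 that name the same 6 H2A genes, 1 was higher by 0.621 (limma adjusted p = 0.00214) and the other lay at 0.15 and did not pass (adjusted p = 0.312). The remaining 2 for the 5 H2B genes, which end in _x_at, were higher by 0.549 and 0.515 (limma adjusted p = 0.00327 and 0.0175), and 2 of 3 naming H2AC18 and H2AC19 by 0.549 and 0.526 (limma adjusted p = 0.00966 and 0.0142). The third lay at 0.22 and did not pass (limma adjusted p = 0.309).

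At 48 h 2 of the 3 probe sets for H2AC18 and H2AC19 were higher with Thiamet-G than with DMSO, by 0.313 and 0.367 (limma adjusted p = 0.0472 and 0.0236), where 0.225% of all probe sets were higher, and the third lay at 0.047 (adjusted p = 0.771). With 5SGlcNAc against DMSO none of the 20 was higher past the threshold in limma, with 1 higher at an unadjusted p under 0.05. Of the 2 that name 10 H3 genes, 1 was lower by a log2 difference of -0.29 (limma adjusted p = 0.0223). The other lay at 0.23 and did not pass (limma adjusted p = 0.340). Between the inhibitors, 4 of the 20 were lower with 5SGlcNAc and none higher, against 4.70% and 4.24% of all probe sets. Of the 3 for the 5 H2B genes, 1 was lower by a log2 difference of -0.52 and 2 did not pass. Also lower were 2 of the 3 for H2AC18 and H2AC19 and 1 of the 5 for the 14 H4 genes.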

How the results depend on the processing

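No histone gene called in a comparison changed direction under any alternative run, and of 387 recomputed calls 284 passed again and 103 did not. Counts of histone genes past the threshold moved in several comparisons. For 5SGlcNAc against DMSO (6) the count was 3 without probe sets ending in _x_at and 3 with the replicate block, and 2 to 3 with 1 array left out. For Thiamet-G against DMSO (5) it was 8 without genes under the 40th percentile, 8 with trended and robust variances, 2 without _x_at probe sets, 3 with the replicate block, 2 with only the arrays of both groups and 2 to 7 with 1 array left out. For 5SGlcNAc against Thiamet-G (6) it was 3 with the replicate block, 2 with only the arrays of both groups and 1 to 4 with 1 array left out. Fewer arrays were fitted in the left-out settings; the cause of the other moves was not tested. The replicate numbers share only a number, since correlations of the deviations of same-numbered arrays ran from -0.33 to 0.17. H1-10 and H2BC6 with 5SGlcNAc, H1-2 and H2BC12 with Thiamet-G, and H1-2 between the inhibitors passed under every alternative that could be run for them. The run without _x_at probe sets could not include H2BC6, whose highest limma adjusted p was 0.0496. In the fit over all probe sets, 1 of 43 single-gene histone probe sets was higher with 5SGlcNAc than with DMSO and 2 were lower. Of all probe sets there, 1.74% were higher and 4.96% lower. At 24 h (13) the count was 7 without genes under the 40th percentile, which leaves out low members, and 7 to 9 with 1 treatment series left out. H1-2, H2AC6, H2BC5, H2BC12, H2BC12L and H4C8 passed under all of these that kept their probe sets. At 8 h (3) and 4 h (1) the counts were 0 to 0 with 1 series left out, and at 4 h 0 without the DMSO array of 4 h. The low level of most members and 1 array per treatment before 48 h limit what could be called.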
